A study of Mus musculus with 8 samples.

Results

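The genes described here act in DNA damage signalling and in the repair of broken DNA. They are 41 genes listed by name, from the kinase Atm to the histone gene H2afx, and all 41 were found among the 24421 gene symbols of the count table. All 41 also had enough counts to be tested, as 41 of 13722 tested genes. They were grouped by role into 4 checkpoint kinases, 6 genes that process break ends, 5 genes of the chromatin mark around a break, 5 genes of the BRCA group, 7 recombination mediators and RAD54 genes, 9 Fanconi anaemia genes and 5 end joining genes.

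A broken DNA end is bound by the MRE11, RAD50 and NBN complex, which recruits the kinase ATM, and single-stranded DNA recruits the related kinase ATR. ATM phosphorylates the histone variant H2AX, MDC1 binds the mark, and ubiquitin ligases then bring in further proteins, while the break itself is sealed by end joining or copied from the sister chromatid by homologous recombination. TIP60, the acetyltransferase encoded by Kat5, is known to acetylate ATM and to act in its activation after breaks.

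RNA sequencing was done on mouse bone marrow cells of C57BL/6 background that carried the leukaemia fusion MLL-AF10. MATIP cells were Tip60 flox/flox with Cre-ERT2, a recombinase that 4-OHT (4-hydroxytamoxifen) switches on, and MAflox cells were the MLL-AF10 flox cells set beside them. The labels do not say what is floxed in MAflox cells, whether they carry Cre-ERT2, or whether either line is 1 clone. Growth was in semisolid methylcellulose to which IL-3, SCF and GM-CSF had been added, and both lines received 100 nM 4-OHT or its solvent EtOH for 4 days, with 2 libraries in each of the groups MATIP 4-OHT, MATIP EtOH, MAflox 4-OHT and MAflox EtOH. The labels leave unsaid whether the 2 libraries of each group were grown as separate cultures. The p-values therefore cover the spread between these libraries alone, which may be technical.

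The libraries held 41101309 to 57312490 counts. Kat5 (chr19:5603014-5610237, minus strand, build mm10) had 8.11 and 8.32 CPM (counts scaled to a common library size) in MATIP 4-OHT, against 41.1 and 41.2 CPM in MATIP EtOH. In MAflox cells it had 57.5 and 62.5 CPM with 4-OHT, against 43.7 and 41.2 CPM with EtOH. Kat5 therefore fell in MATIP cells (log2 fold change -2.32 ± 0.09 SE, edgeR quasi-likelihood adjusted p = 6.99e-15) and rose in MAflox cells (0.50 ± 0.07, adjusted p = 7.5e-06). Of its exon bases, 12.1% are shared with Rnaseh2c on the opposite strand, and the strand setting of the counting is not given in the sources used here. All 12 myeloid markers were detected in every group. The summed level of 10 neutrophil markers was 33616 and 37169 CPM in MATIP 4-OHT against 731 and 868 CPM in MATIP EtOH, and 49095 and 52502 CPM in MAflox 4-OHT against 209 and 204 CPM in MAflox EtOH. The summed level of 10 macrophage markers was 14590 and 15003 CPM in MATIP 4-OHT against 240 and 219 CPM in MATIP EtOH, and 957 and 856 CPM in MAflox 4-OHT against 124 and 145 CPM in MAflox EtOH. All 7 tested macrophage markers rose in MATIP cells and 6 of 7 in MAflox cells. Of the 10 macrophage markers, 1 was at 0 in MATIP 4-OHT, 2 in MATIP EtOH and 4 in each MAflox group, C1qa among them in every group. The summed level of 12 lymphoid markers was 115 and 124 CPM in MATIP 4-OHT against 16.1 and 16.3 CPM in MATIP EtOH, and 24.3 and 23.4 CPM in MAflox 4-OHT against 14.1 and 14.0 CPM in MAflox EtOH. Of these 12, 4 were at 0 in MATIP 4-OHT, 6 in MATIP EtOH, 5 in MAflox 4-OHT and 6 in MAflox EtOH, Cd3e among them in each group. Of the 4 tested lymphoid markers, 2 rose and 2 fell in MATIP cells, with log2 fold changes from -2.66 to 6.32. In MAflox cells 2 of these 4 rose and 0 fell. The summed level thus does not stand for the list as a whole. In such bulk libraries, fewer cells of a type and less RNA per cell cannot be told apart, and the part of these marker changes in the results on repair genes was not tested.

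Promoter stretches of 5 of the genes are shown, of which Xrcc6 had the largest fall and Xrcc5 the largest rise in MATIP cells. The other 3, Chek2, Mdc1 and Brca2, had a called difference between the lines, which for Mdc1 and Brca2 depended on the setting. These are not the 3 largest differences. All 3 hold the E2F motif described below, which was present in 7 of 31 repair gene promoters, so they do not represent these genes. All 5 stretches were read from RefSeq promoters of build GRCm38.p6 and run 5′ to 3′ on the gene's strand. They lie upstream of the start used in that table, which for Xrcc6 lies inside the gene span given further on. The stretches are Xrcc6 at chr15:82016283-82016368, Chek2 at chr5:110839791-110839878, Mdc1 at chr17:35841422-35841497, Brca2 at chr5:150522413-150522500 and Xrcc5 at chr1:72307212-72307296, all on the plus strand. Capitals mark an E2F motif (TTTNNCGC, with each N a C or a G), the binding motif of factors that drive S phase genes, or a CCAAT box, in either orientation.
Xrcc6: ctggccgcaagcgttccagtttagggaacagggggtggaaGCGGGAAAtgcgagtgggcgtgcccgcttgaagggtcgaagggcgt
Chek2: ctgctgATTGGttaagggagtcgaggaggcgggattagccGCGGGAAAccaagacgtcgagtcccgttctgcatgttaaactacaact
Mdc1: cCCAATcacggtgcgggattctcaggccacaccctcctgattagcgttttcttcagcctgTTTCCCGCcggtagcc
Brca2: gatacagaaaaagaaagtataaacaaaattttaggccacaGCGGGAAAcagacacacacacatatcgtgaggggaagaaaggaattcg
Xrcc5: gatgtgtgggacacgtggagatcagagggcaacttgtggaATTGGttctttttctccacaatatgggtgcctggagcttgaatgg

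Of the 41 genes, 31 had a promoter in the RefSeq table. The E2F motif was present on either strand in 7 of these 31 (22.6%), in Chek2, Mdc1, Brca2, Bard1, Rad51c, Fancg and Xrcc6, against 704 of 27025 genes (2.6%) in the whole table. Among 24 S phase genes with a promoter it was present in 12 (50%). CCAAT was present in 61.3% of the repair genes against 41.1% of all genes. The motif TTTGAA, found in promoters of many mitosis genes, was present in 9.68% of the repair genes against 20.2% of all genes and 72.2% of the mitosis genes. In Rnf8 the TTTGAA match (bases -205 to -200 from the start) overlapped the CCAAT match (-209 to -205). A match is a description of letters in a window of 250 bases before and 50 bases after the start.

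With 4-OHT in MATIP cells, the cells in which Kat5 fell, most repair genes were lower. Of the 41 genes 34 fell, 5 rose and 2 (Rnf8 and Fancc) did not pass the test, with a median log2 fold change of -0.70. Over all tested genes 76.1% were called, 38.6% lower and 37.5% higher, with a median of 0.00. The 4-OHT and EtOH libraries did not overlap for 39 of the 41 genes, against 88.3% of all tested genes. The 5 that rose were the end joining genes Xrcc5, Lig4 and Xrcc4, and Fanci and H2afx. The calls of Fanci and H2afx were lost with library totals alone and without MATIP EtOH replicate 1, which left 3 that rose. Summed over the 41 genes, the level was 1109 and 1085 CPM in MATIP 4-OHT against 1687 and 1715 CPM in MATIP EtOH.

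In MAflox cells, where Kat5 did not fall, 4-OHT also lowered most of these genes, with smaller changes at the median. Here 24 of the 41 fell, 8 rose and 9 did not pass the test, with a median of -0.38. The background was 65.2% of all tested genes called, 32.1% lower and 33.1% higher, with a median of 0.02. The 4-OHT and EtOH libraries did not overlap for 37 of the 41 genes, against 81.1% of all tested genes. A lack of overlap was thus common in both lines. The shares of all tested genes given here for each line are also the background of the counts by role below. The genes that rose were Chek2, Rbbp8, H2afx, Rnf168, Rad51b, Rad51d, Xrcc4 and Xrcc5, and the genes that did not pass were Chek1, Nbn, Rnf8, Brip1, Fanca, Fancb, Fancg, Fanci and Lig4. With counts scaled by library totals alone, 5 rose and 29 fell in MAflox cells. Rbbp8, Rnf168 and Rad51d then no longer passed as rises (adjusted p = 0.912, 0.256 and 0.494 in the edgeR test). Chek1, Nbn, Brip1, Fanca and Fancb then passed as falls (edgeR adjusted p = 0.0106, 0.00105, 0.0139, 0.00163 and 0.0127).

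**Figure D1:**
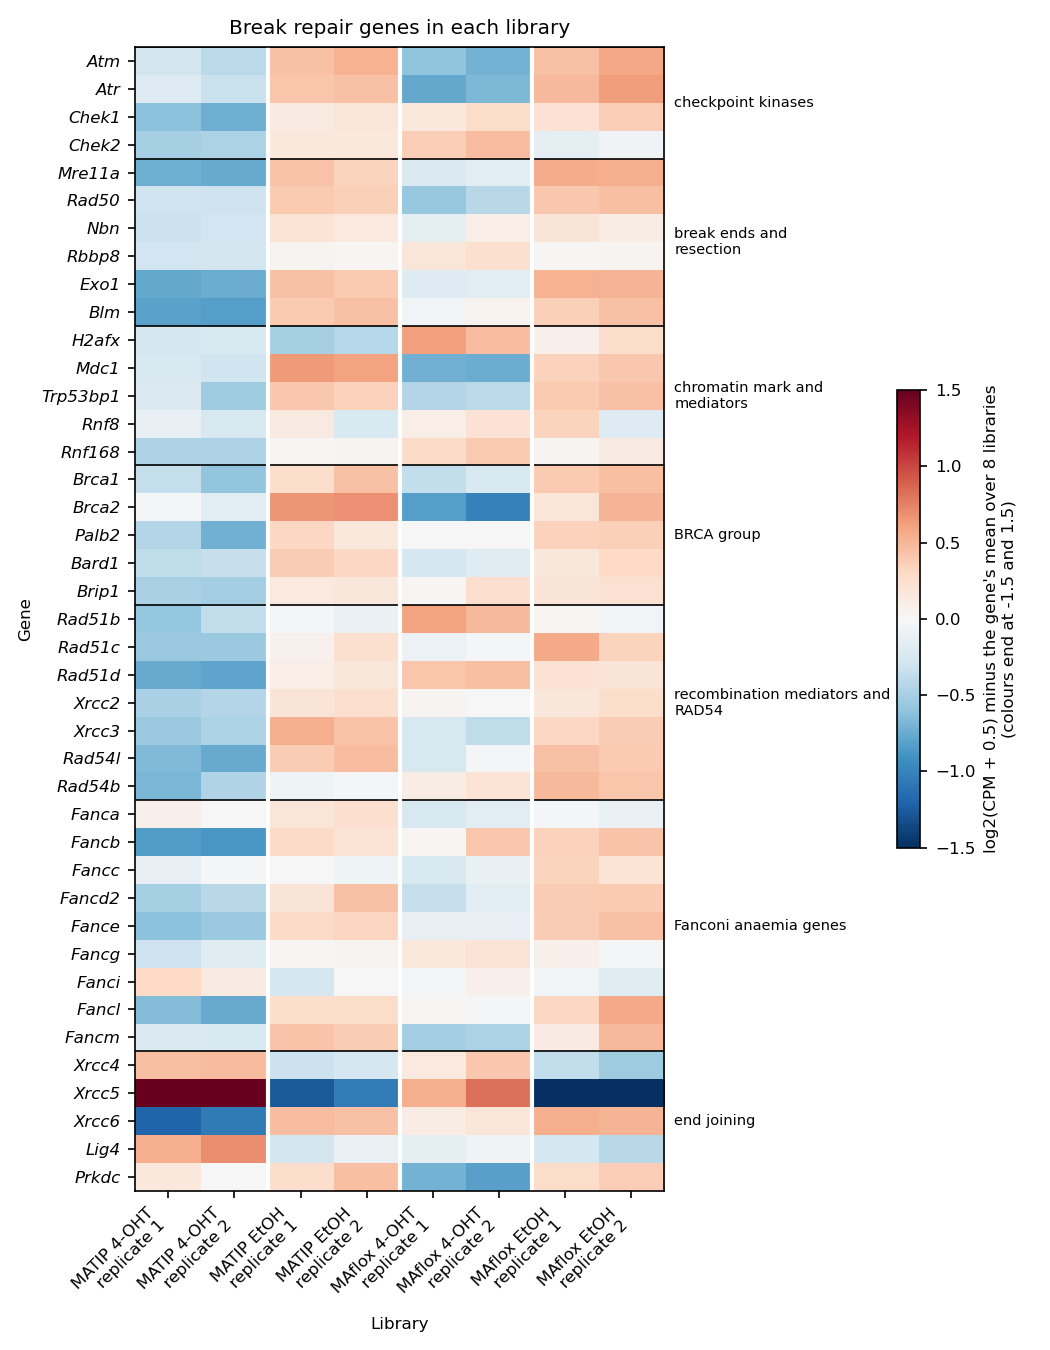
Level of each of the 41 genes in each of the 8 libraries as log2(CPM + 0.5) minus the gene's mean over the libraries, in rows by role and columns by group. Most rows are blue in the MATIP 4-OHT libraries, and the end joining gene Xrcc5 shows the widest contrast.

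Proliferation genes were read beside the repair genes, since many repair genes are made in S phase. Over all tested genes 38.6% were lower and 37.5% higher in MATIP cells, and 32.1% lower and 33.1% higher in MAflox cells. Of 30 S phase genes 28 fell in MATIP cells with 4-OHT and 1 rose (median -1.10), and 18 fell and 6 rose in MAflox cells (median -0.20). Of 22 mitosis genes 21 fell and 0 rose in MATIP cells (median -1.37), and 10 fell and 4 rose in MAflox cells (median -0.12). The summed level of the S phase genes was 3032 and 3075 CPM in MATIP 4-OHT against 6577 and 6438 CPM in MATIP EtOH, and 5266 and 5442 CPM in MAflox 4-OHT against 6666 and 6677 CPM in MAflox EtOH. The part of proliferation in the repair genes' changes was not tested. Of 23 tested p53 target genes 17 rose and 5 fell in MATIP cells (median 0.81), and 17 rose and 4 fell in MAflox cells (median 0.65).

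Among the checkpoint kinases, all 4 fell in MATIP cells, by 0.66 to 0.85 on the log2 scale, while in MAflox cells Atm and Atr fell, Chek2 rose and Chek1 did not pass the test. Atm (chr9:53439149-53536740, minus strand), the kinase that TIP60 acetylates, had 30.6 and 27.9 CPM in MATIP 4-OHT against 50.6 and 53.5 CPM in MATIP EtOH. It had 24.3 and 22.4 CPM in MAflox 4-OHT against 50.6 and 55.7 CPM in MAflox EtOH. The 4-OHT libraries lay below the EtOH libraries in both lines, with no overlap. The log2 fold change of Atm was -0.83 ± 0.08 in MATIP cells (edgeR adjusted p = 1.68e-08) and -1.19 ± 0.08 in MAflox cells (adjusted p = 2.08e-10). Its fall was smaller in MATIP cells by 0.36 ± 0.11 on the log2 scale (adjusted p = 0.0117), a difference that missed the threshold without MAflox EtOH replicate 2 (adjusted p = 0.0794) and was -0.10 once the trend with transcript length and GC content was removed. Atr, the kinase of stalled forks, had 32.5 and 29.4 CPM in MATIP 4-OHT against 49.6 and 50.7 CPM in MATIP EtOH, and 21.6 and 23.1 CPM in MAflox 4-OHT against 52.4 and 57.7 CPM in MAflox EtOH. Atr was thus lowest in MAflox 4-OHT, with a log2 fold change of -0.70 ± 0.08 in MATIP cells and -1.30 ± 0.08 in MAflox cells (edgeR adjusted p = 1.6e-07 and 4.41e-11) and a difference of 0.60 ± 0.11 (adjusted p = 0.000122).

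Chek2 (chr5:110839979-110874145, plus strand), the kinase downstream of ATM, moved in opposite directions in the lines. It had 26.5 and 26.9 CPM in MATIP 4-OHT against 42.2 and 42.0 CPM in MATIP EtOH, and 48.9 and 52.1 CPM in MAflox 4-OHT against 34.2 and 36.4 CPM in MAflox EtOH. No groups overlapped within a line, with MATIP 4-OHT lowest and MAflox 4-OHT highest of all. Its log2 fold change was -0.66 ± 0.07 in MATIP cells and 0.51 ± 0.07 in MAflox cells, and the difference of -1.17 ± 0.10 passed the edgeR test (adjusted p = 1.29e-08). Chek1, the kinase downstream of ATR, fell in MATIP cells (-0.85 ± 0.08). It had a log2 fold change of -0.08 ± 0.08 in MAflox cells (edgeR adjusted p = 0.393), a difference of -0.77 ± 0.12 (adjusted p = 1.15e-05). With library totals alone Chek1 was called lower in MAflox cells too (-0.25, edgeR adjusted p = 0.0106).

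**Figure D2:**
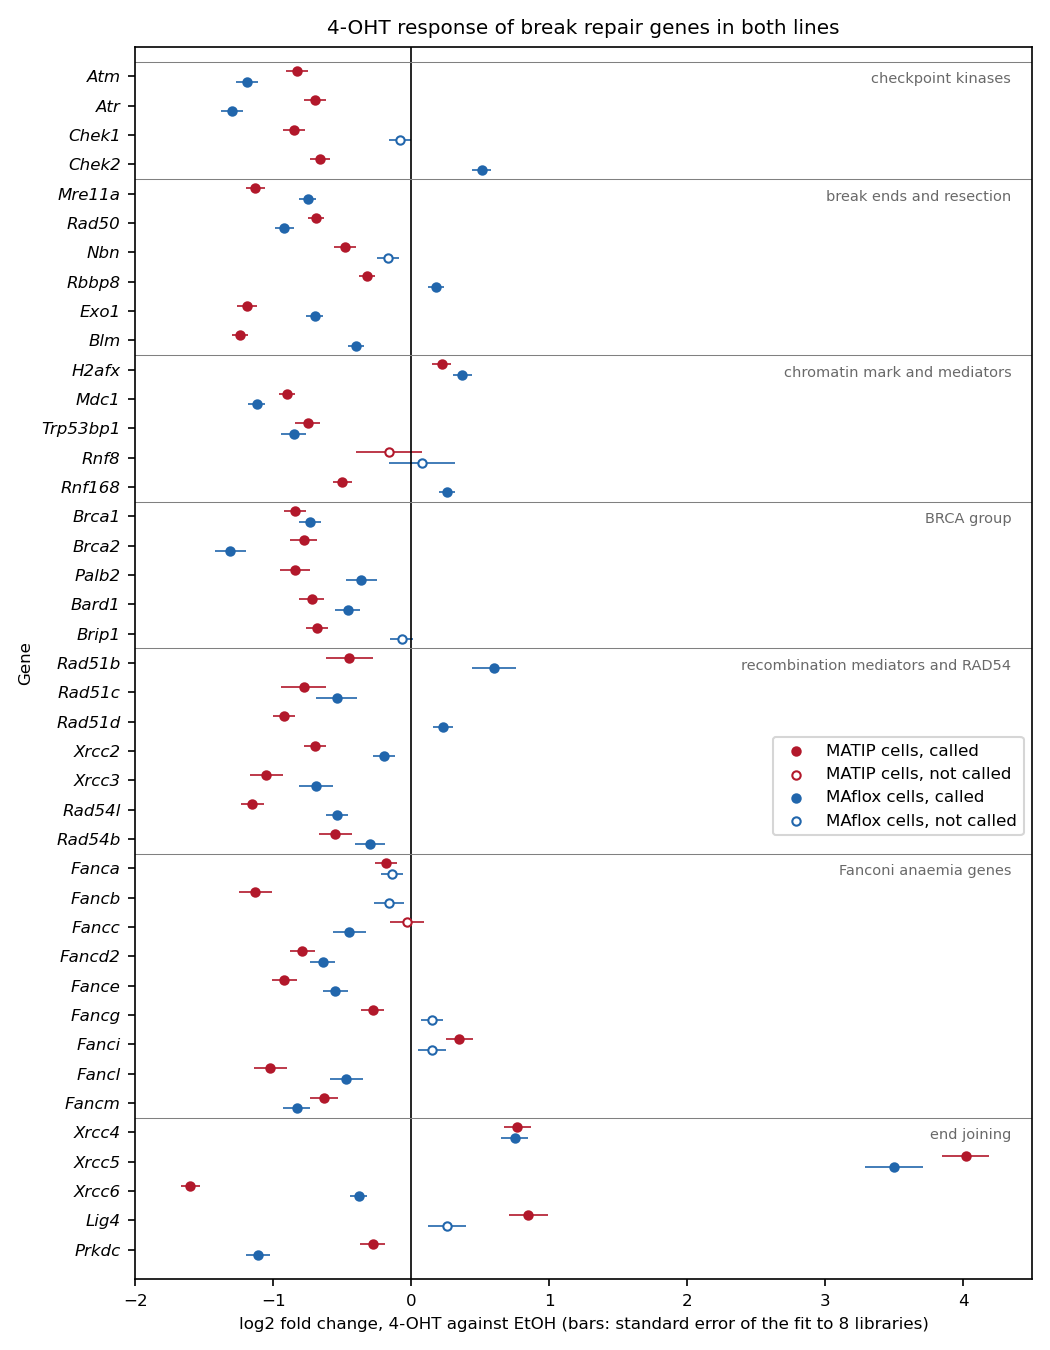
Log2 fold change of each gene with 4-OHT against EtOH in MATIP cells (red) and MAflox cells (blue), by role, with standard errors of the fit to 8 libraries and filled points for genes called. Most points lie left of 0 in MATIP cells, while Chek2, Rnf168, Rad51b and Rad51d lie on opposite sides in the lines.

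All 6 genes that hold and resect break ends fell in MATIP cells (median -0.91), and 4 of 6 fell in MAflox cells (median -0.55). Blm, the helicase lost in Bloom syndrome, had 40.7 and 40.1 CPM in MATIP 4-OHT against 94.0 and 96.9 CPM in MATIP EtOH, and 69.7 and 74.0 CPM in MAflox 4-OHT against 92.2 and 97.5 CPM in MAflox EtOH. The MATIP 4-OHT libraries were the lowest and the EtOH libraries of the lines overlapped. Blm fell by 1.24 ± 0.06 on the log2 scale in MATIP cells (edgeR adjusted p = 1.08e-12) and by 0.40 ± 0.06 in MAflox cells (adjusted p = 1.21e-05), a difference of -0.84 ± 0.09 (adjusted p = 1.18e-07). Exo1, a nuclease that resects ends, had 29.7 and 30.2 CPM in MATIP 4-OHT against 69.5 and 67.2 CPM in MATIP EtOH, and 44.6 and 45.4 CPM in MAflox 4-OHT against 73.5 and 72.9 CPM in MAflox EtOH. Its log2 fold change was -1.19 ± 0.07 in MATIP cells and -0.70 ± 0.06 in MAflox cells (edgeR adjusted p = 3.83e-12 and 1.29e-08).

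The 3 genes of the complex that senses ends did not change alike. Mre11a, its nuclease, had 34.3 and 34.0 CPM in MATIP 4-OHT against 77.4 and 72.8 CPM in MATIP EtOH, and 49.3 and 51.5 CPM in MAflox 4-OHT against 85.0 and 84.3 CPM in MAflox EtOH. It fell in both lines, by 1.13 ± 0.07 and 0.75 ± 0.06 on the log2 scale, more in MATIP cells (difference -0.39 ± 0.09, edgeR adjusted p = 0.00112). Rad50, the ATPase that tethers ends, had a log2 fold change of -0.69 ± 0.06 in MATIP cells and -0.92 ± 0.07 in MAflox cells. Nbn, which carries ATM to the break, fell in MATIP cells (-0.48 ± 0.08) and had -0.17 ± 0.08 in MAflox cells (edgeR adjusted p = 0.0713), where scaling by library totals alone called it lower (adjusted p = 0.00105). Rbbp8, which encodes the resection factor CtIP, fell in MATIP cells (-0.32 ± 0.06) and rose in MAflox cells (0.18 ± 0.06, edgeR adjusted p = 0.0133), a rise lost without MAflox EtOH replicate 1 or MAflox 4-OHT replicate 2 (adjusted p = 0.0885 and 0.0554).

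The genes of the chromatin mark did not move as 1 group. H2afx (chr9:44334694-44336077, plus strand) encodes the histone variant that ATM phosphorylates. It had 90.0 and 91.3 CPM in MATIP 4-OHT against 75.6 and 79.9 CPM in MATIP EtOH, and 164 and 148 CPM in MAflox 4-OHT against 113 and 129 CPM in MAflox EtOH. All 4 MATIP libraries lay below all 4 MAflox libraries. H2afx rose by a log2 fold change of 0.22 ± 0.07 in MATIP cells (edgeR adjusted p = 0.00854) and by 0.37 ± 0.07 in MAflox cells (adjusted p = 0.000114). The call in MATIP cells was lost without MATIP EtOH replicate 1 (adjusted p = 0.0676) and with library totals alone (0.09, adjusted p = 0.276). Of its exon bases 10.2% are shared with Gm44335 on the opposite strand. Rnf168, the ligase that marks histones for the repair factors, fell in MATIP cells (-0.50 ± 0.07) and had 0.26 ± 0.06 in MAflox cells, a difference of -0.76 ± 0.09 (edgeR adjusted p = 8.07e-07). Rnf8, the ligase upstream of it, had 2.99 and 2.72 CPM in MATIP 4-OHT against 3.68 and 2.73 CPM in MATIP EtOH. In MAflox cells Rnf8 had 3.55 and 3.91 CPM with 4-OHT against 4.27 and 2.81 CPM with EtOH. Its change did not pass the test in either line (-0.16 ± 0.24 and 0.08 ± 0.24, edgeR adjusted p = 0.551 and 0.777). Gm28043 on the same strand shares 13.2% of the exon bases of Rnf8.

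Mdc1 (chr17:35841515-35859670, plus strand), the reader of phosphorylated H2AX, had 59.7 and 57.1 CPM in MATIP 4-OHT against 110 and 107 CPM in MATIP EtOH, and 42.6 and 41.8 CPM in MAflox 4-OHT against 89.6 and 93.6 CPM in MAflox EtOH. Mdc1 fell without overlap in both lines, with log2 fold changes of -0.90 ± 0.06 in MATIP cells and -1.12 ± 0.06 in MAflox cells (edgeR adjusted p = 8.17e-11 and 8.75e-12). The difference of 0.22 ± 0.09 passed the test (adjusted p = 0.0336), was lost without MAflox EtOH replicate 1 or 2 (0.054 and 0.159), MAflox 4-OHT replicate 2 (0.0547), MATIP EtOH replicate 1 or 2 (0.0528 and 0.116) or MATIP 4-OHT replicate 1 (0.0695), and was -0.47 with the length and GC trend removed. Trp53bp1, a mediator that shields ends from resection, had 30.2 and 24.1 CPM in MATIP 4-OHT against 46.4 and 44.8 CPM in MATIP EtOH. In MAflox cells Trp53bp1 had 25.8 and 26.4 CPM with 4-OHT against 46.1 and 47.7 CPM with EtOH. It fell in both lines, by 0.75 ± 0.09 and 0.85 ± 0.09 on the log2 scale (edgeR adjusted p = 3.5e-07 and 1.09e-07), and the difference of 0.09 ± 0.13 did not pass the test (adjusted p = 0.54). With the length and GC trend removed, Trp53bp1 had a log2 fold change of -0.26 in MAflox cells and a difference of -0.62. Tubgcp4 on the opposite strand shares 15% of the exon bases of Trp53bp1.

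All 5 genes of the BRCA group fell in MATIP cells, within a narrow range of log2 fold changes of -0.84 to -0.68, and 4 of 5 fell in MAflox cells, within -1.31 to -0.36. Brca2 (chr5:150522630-150570329, plus strand), a tumour suppressor that acts in homologous recombination, had 24.1 and 21.9 CPM in MATIP 4-OHT against 39.2 and 39.9 CPM in MATIP EtOH, and 13.7 and 11.9 CPM in MAflox 4-OHT against 27.9 and 35.4 CPM in MAflox EtOH. Its log2 fold change was -0.78 ± 0.10 in MATIP cells and -1.31 ± 0.11 in MAflox cells, a difference of 0.53 ± 0.15 (edgeR adjusted p = 0.00544). The 2 MAflox EtOH libraries lay apart, and without replicate 2 of them the difference was 0.33 (adjusted p = 0.0631). With the length and GC trend removed it was 0.03. Brca1, the ubiquitin ligase subunit that promotes resection, fell by 0.84 ± 0.08 in MATIP cells and by 0.73 ± 0.08 in MAflox cells on the log2 scale. Its partner Bard1 fell by 0.72 ± 0.09 and 0.46 ± 0.09, and Palb2, which links it to BRCA2, fell by 0.84 ± 0.11 and 0.36 ± 0.11. Brip1, the helicase that binds BRCA1, fell in MATIP cells (-0.68 ± 0.08) and had -0.07 ± 0.08 in MAflox cells (edgeR adjusted p = 0.462). With library totals alone Brip1 was called lower in MAflox cells too (-0.25, edgeR adjusted p = 0.0139).

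The recombination mediators Rad51b, Rad51c, Rad51d, Xrcc2 and Xrcc3, which act in homologous recombination, and the RAD54 translocases all fell in MATIP cells (7 of 7, median -0.78). In MAflox cells 5 of 7 fell and 2 rose (median -0.30). Rad51d had 19.3 and 18.8 CPM in MATIP 4-OHT against 35.1 and 37.0 CPM in MATIP EtOH, and 43.8 and 45.2 CPM in MAflox 4-OHT against 38.2 and 37.5 CPM in MAflox EtOH. Rad51d was lower with 4-OHT in MATIP cells and higher in MAflox cells, with a difference of -1.15 ± 0.11 (edgeR adjusted p = 2.15e-08). Its rise in MAflox cells (0.23 ± 0.07, adjusted p = 0.00972) was lost without MAflox EtOH replicate 2 (adjusted p = 0.0603). Rad51b had 3.39 and 4.00 CPM in MATIP 4-OHT against 5.18 and 4.94 CPM in MATIP EtOH, and 8.31 and 7.67 CPM in MAflox 4-OHT against 5.41 and 5.17 CPM in MAflox EtOH. Its groups did not overlap in either line, and its difference was -1.04 ± 0.23 (edgeR adjusted p = 0.00063). The fall of Rad51b in MATIP cells (-0.45 ± 0.17, adjusted p = 0.021) was lost without MATIP EtOH replicate 1, without MATIP 4-OHT replicate 1 and in DESeq2 (adjusted p = 0.0613, 0.202 and 0.101), while its rise in MAflox cells was 0.60 ± 0.16 (adjusted p = 0.00279).

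Rad54l, the main RAD54 translocase, had 29.5 and 27.7 CPM in MATIP 4-OHT against 61.3 and 65.4 CPM in MATIP EtOH, and 40 and 46.6 CPM in MAflox 4-OHT against 64.2 and 62.0 CPM in MAflox EtOH. The 4-OHT libraries were the lower ones in both lines, with log2 fold changes of -1.15 ± 0.08 and -0.54 ± 0.08 (edgeR adjusted p = 1.16e-10 and 4.99e-06) and a difference of -0.60 ± 0.11 (adjusted p = 0.000107). Lrrc41 on the opposite strand shares 15.4% of its exon bases. Xrcc3 fell by 1.05 ± 0.12 in MATIP cells and 0.69 ± 0.12 in MAflox cells, Rad51c by 0.78 ± 0.16 and 0.54 ± 0.15, and Xrcc2 by 0.70 ± 0.08 and 0.20 ± 0.08 on the log2 scale. The small fall of Xrcc2 in MAflox cells (edgeR adjusted p = 0.0379) was lost without either MAflox 4-OHT library (adjusted p = 0.0736 and 0.176), without MAflox EtOH replicate 2 (0.222), without either MATIP 4-OHT library (0.0612 and 0.061) and in DESeq2 (0.0733). That of Rad51c in MAflox cells (adjusted p = 0.00362) was lost without MAflox EtOH replicate 1 (0.059).

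Of the 9 Fanconi anaemia genes, whose products repair crosslinks between DNA strands, 7 fell and 1 rose in MATIP cells, and 5 fell and 0 rose in MAflox cells. The 4 that did not pass in MAflox cells had log2 fold changes between -0.16 and 0.15. Among them, Fanca and Fancb passed as lower with library totals alone (-0.32 and -0.34). Fancb, a subunit of the core complex on the X chromosome, had 9.41 and 9.17 CPM in MATIP 4-OHT against 21 and 19.8 CPM in MATIP EtOH, and 17.6 and 22.9 CPM in MAflox 4-OHT against 22.0 and 23.3 CPM in MAflox EtOH. The MAflox groups overlapped and the MATIP groups did not. Fancb had a log2 fold change of -1.13 ± 0.12 in MATIP cells (edgeR adjusted p = 4.31e-08) and -0.16 ± 0.11 in MAflox cells (adjusted p = 0.206), a difference of -0.97 ± 0.16 (adjusted p = 3.5e-05). Without MAflox 4-OHT replicate 2 Fancb passed as lower in MAflox cells too (-0.34, adjusted p = 0.0174).

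Fanci, which pairs with FANCD2, was the 1 Fanconi gene that rose in MATIP cells. It had 31.9 and 28.4 CPM in MATIP 4-OHT against 21.5 and 25.6 CPM in MATIP EtOH, and 25.5 and 27.3 CPM in MAflox 4-OHT against 25 and 22.6 CPM in MAflox EtOH. The rise of Fanci in MATIP cells (0.35 ± 0.10, edgeR adjusted p = 0.00317) was lost without MATIP EtOH replicate 1 (adjusted p = 0.0636) and with library totals alone (0.057), and Polg on the opposite strand shares 16% of its exon bases. Fancd2, the partner, fell by 0.79 ± 0.09 in MATIP cells and 0.64 ± 0.09 in MAflox cells on the log2 scale. Fancc, another core subunit, had 9.88 and 10.7 CPM in MATIP 4-OHT against 10.8 and 10.3 CPM in MATIP EtOH, and 9.11 and 10.0 CPM in MAflox 4-OHT against 13.8 and 12.5 CPM in MAflox EtOH. Fancc thus overlapped between the MATIP groups and fell in MAflox cells (-0.45 ± 0.12, edgeR adjusted p = 0.00278), a difference of 0.42 ± 0.17 (adjusted p = 0.0386) that was lost without MAflox EtOH replicate 1, MAflox 4-OHT replicate 1, MATIP EtOH replicate 2 or MATIP 4-OHT replicate 2 (adjusted p = 0.141, 0.0903, 0.0944 and 0.109). Antisense and neighbouring genes share 18.6% of the exon bases of Fancc.

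Among the remaining Fanconi genes, the ubiquitin ligase gene Fancl had a log2 fold change of -1.02 ± 0.12 in MATIP cells and -0.47 ± 0.12 in MAflox cells. On the opposite strand, Vrk2 shares 13.7% of the exon bases of Fancl, and Zfp276 shares 10.5% of those of Fanca. Fance, which links the core complex to FANCD2, had -0.92 ± 0.09 and -0.55 ± 0.09, and the translocase gene Fancm had -0.63 ± 0.10 and -0.83 ± 0.10. Fancg, a core subunit, had -0.28 ± 0.08 in MATIP cells, lost without MATIP 4-OHT replicate 1 (edgeR adjusted p = 0.144) and in DESeq2 (0.0611), and 0.15 ± 0.08 in MAflox cells. Fanca, another core subunit, had 37.7 and 35.7 CPM in MATIP 4-OHT against 40.6 and 42.6 CPM in MATIP EtOH, and 30.2 and 31.8 CPM in MAflox 4-OHT against 35.1 and 33.3 CPM in MAflox EtOH. Its small fall in MATIP cells (-0.18 ± 0.08, edgeR adjusted p = 0.0365) was lost in DESeq2 (adjusted p = 0.277), and without MATIP 4-OHT replicate 1 or 2 (0.101 and 0.322), MATIP EtOH replicate 2 (0.141) or MAflox 4-OHT replicate 1 or 2 (0.0829 and 0.0826).

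The end joining genes held both the largest rise and the largest fall of all 41 genes in MATIP cells. XRCC5 and XRCC6 are the Ku80 and Ku70 subunits of the ring that binds DNA ends, and their genes moved apart. Xrcc5 (chr1:72307421-72394952, plus strand) had 23.8 and 24.6 CPM in MATIP 4-OHT against 1.33 and 1.62 CPM in MATIP EtOH, and 5.87 and 7.23 CPM in MAflox 4-OHT against 0.50 and 0.646 CPM in MAflox EtOH. The 4 groups did not overlap, with MATIP 4-OHT highest and MAflox EtOH lowest. Xrcc5 was 16.2-fold higher with 4-OHT in MATIP cells (log2 4.02 ± 0.17, edgeR adjusted p = 5.6e-14) and 11.3-fold higher in MAflox cells (3.50 ± 0.21, adjusted p = 2.23e-11), and the difference of 0.53 ± 0.30 did not pass the test (adjusted p = 0.132). No annotated exon of another gene overlaps its exons. Summed over the 2 libraries, Xrcc5 had 158 counts in MATIP EtOH and 56 in MAflox EtOH. Its fold changes from EtOH, and comparisons of the lines in EtOH, rest on these few counts.

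Xrcc6 (chr15:81987835-82040085, plus strand) had 28.7 and 31.6 CPM in MATIP 4-OHT against 92 and 90.7 CPM in MATIP EtOH, and 72.0 and 75.7 CPM in MAflox 4-OHT against 97.0 and 95.3 CPM in MAflox EtOH. It fell without overlap in both lines, 3.03-fold in MATIP cells (log2 -1.60 ± 0.07, edgeR adjusted p = 4.99e-14) and 1.30-fold in MAflox cells (-0.38 ± 0.06, adjusted p = 2.95e-05). The difference of -1.22 ± 0.09 was the most negative of the 41 genes (adjusted p = 1.24e-09). Desi1 on the opposite strand shares 7.69% of the exon bases of Xrcc6. Per kilobase of the longest annotated transcript, the Xrcc5 level was 107% and 100% of the Xrcc6 level in MATIP 4-OHT against 1.86% and 2.31% in MATIP EtOH, and 10.5% and 12.3% in MAflox 4-OHT against 0.665% and 0.874% in MAflox EtOH. Thus the level of Xrcc5 per length reached that of Xrcc6 in MATIP 4-OHT, through both the higher Xrcc5 and the lower Xrcc6.

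**Figure D3:**
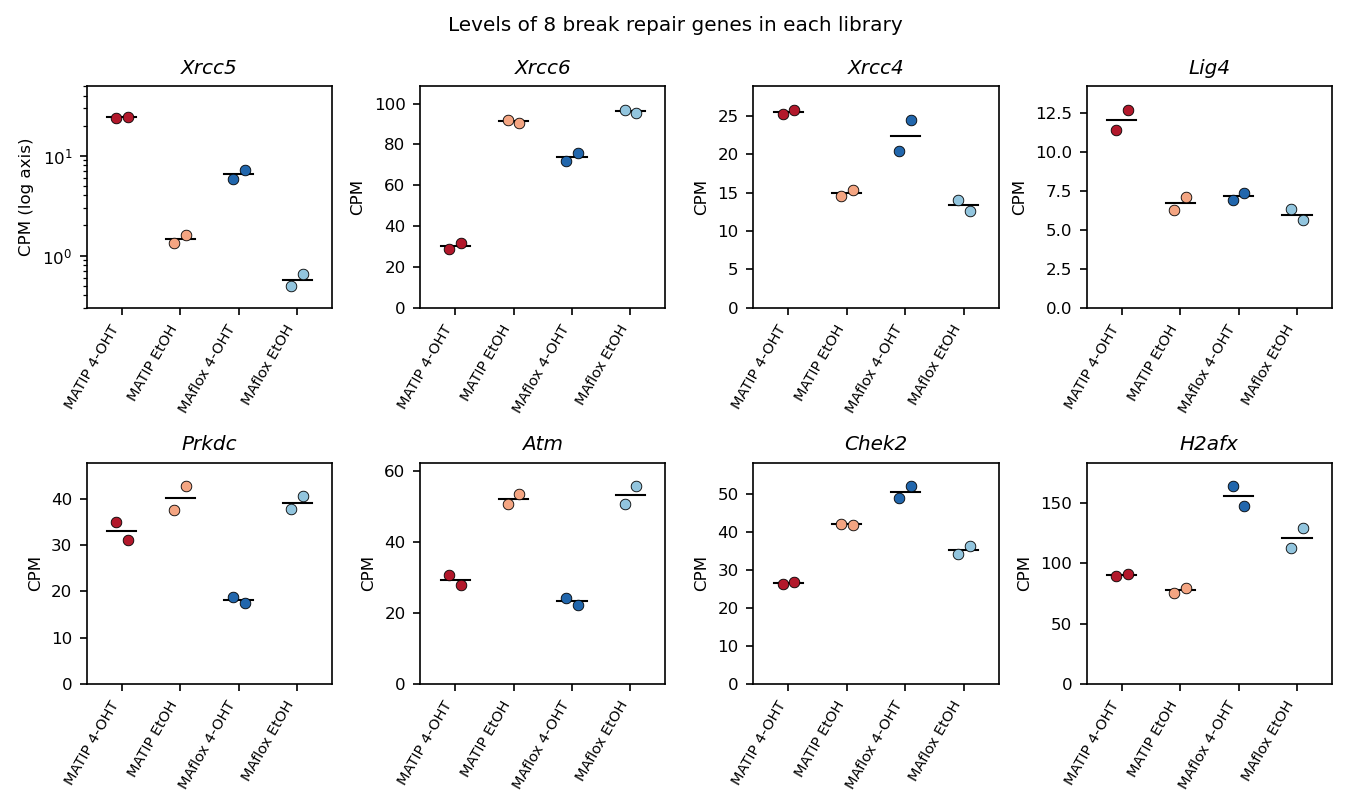
CPM of the 5 end joining genes and of Atm, Chek2 and H2afx in each library (points) with the mean of each group (line), on a log axis for Xrcc5. Xrcc5 reaches 23.8 and 24.6 CPM in MATIP 4-OHT, while Xrcc6 is lowest there, at 28.7 and 31.6 CPM.

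Xrcc4 and Lig4 encode the scaffold and the ligase of the step that seals the ends. Xrcc4 had 25.3 and 25.8 CPM in MATIP 4-OHT against 14.6 and 15.4 CPM in MATIP EtOH, and 20.4 and 24.4 CPM in MAflox 4-OHT against 14.1 and 12.6 CPM in MAflox EtOH. It rose in both lines without overlap, by log2 fold changes of 0.77 ± 0.10 and 0.75 ± 0.10 (edgeR adjusted p = 1.53e-06 and 3.77e-06). Lig4 had 11.4 and 12.7 CPM in MATIP 4-OHT against 6.24 and 7.13 CPM in MATIP EtOH, and 6.89 and 7.39 CPM in MAflox 4-OHT against 6.31 and 5.64 CPM in MAflox EtOH. Lig4 rose in MATIP cells (0.85 ± 0.14, edgeR adjusted p = 1.82e-05) and had 0.26 ± 0.14 in MAflox cells (adjusted p = 0.127). The difference of 0.59 ± 0.20 (adjusted p = 0.0157) was lost without MAflox EtOH replicate 1, MATIP EtOH replicate 1 or MATIP 4-OHT replicate 2 (adjusted p = 0.0642, 0.0519 and 0.0648).

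Prkdc (chr16:15637866-15842235, plus strand), the DNA-dependent protein kinase that Ku recruits, had 35.0 and 31.2 CPM in MATIP 4-OHT against 37.6 and 42.7 CPM in MATIP EtOH, and 18.9 and 17.5 CPM in MAflox 4-OHT against 37.8 and 40.5 CPM in MAflox EtOH. The MAflox 4-OHT libraries stood below all others. The log2 fold change of Prkdc was -0.28 ± 0.09 in MATIP cells (edgeR adjusted p = 0.00711) and -1.11 ± 0.09 in MAflox cells (adjusted p = 2.53e-09). The call in MATIP cells was lost in DESeq2 (adjusted p = 0.0682) and without MATIP EtOH replicate 2 or MATIP 4-OHT replicate 2 (0.0911 and 0.18). The difference of 0.83 ± 0.13 was the most positive of the 41 genes (edgeR adjusted p = 1.24e-05), and was 0.18 with the length and GC trend removed.

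Tested directly, the 4-OHT responses of the lines differed for 27 of the 41 genes (65.9%), a share near the 61.9% of all tested genes. The response was lower in MATIP cells for 19 genes (46.3%) and higher for 8 (19.5%). Over all tested genes 33.6% were lower and 28.3% higher. The median difference was -0.26, against -0.03 over all genes. Of the 6 genes that process break ends 5 were on the lower side. Of the 7 recombination mediators and RAD54 genes 4 were on the lower side and 0 on the higher side. Without the 5 end joining genes, 18 of 36 were lower and 6 higher. Without MAflox EtOH replicate 2 the number on the higher side was 4, and without MAflox EtOH replicate 1 or MATIP EtOH replicate 2 it was 5.

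**Figure D4:**
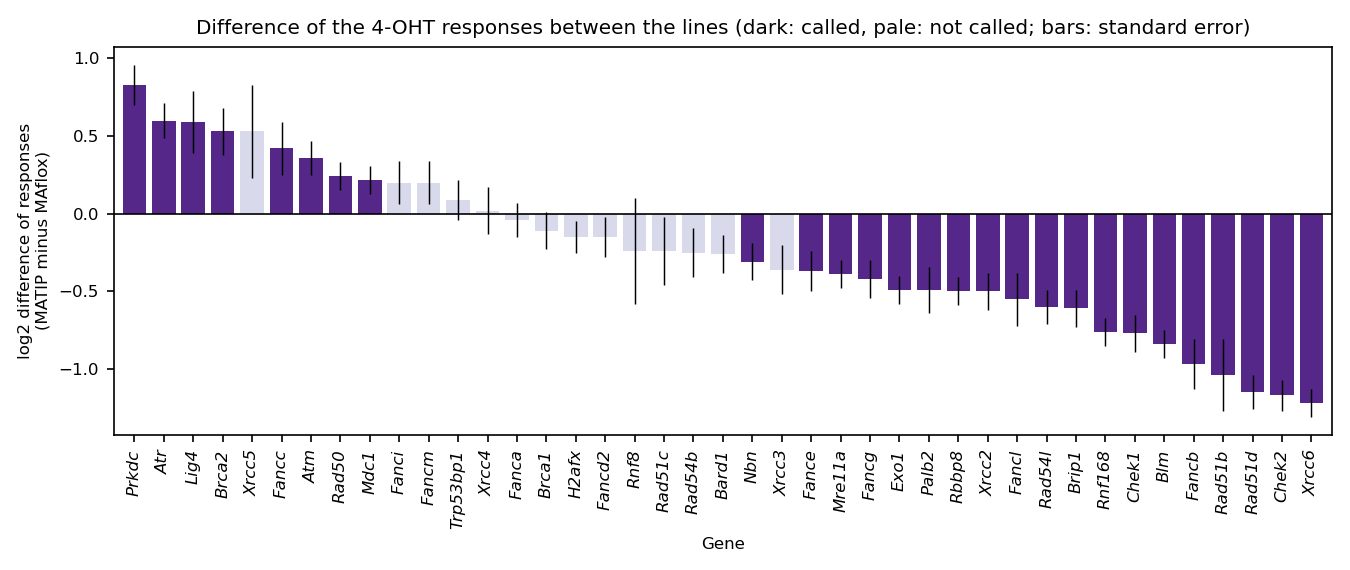
Log2 fold change with 4-OHT in MATIP cells minus that in MAflox cells for each of the 41 genes, in order of size, with standard errors and dark bars for genes called. Prkdc stands at 0.83 at the positive end, and Rad51b, Rad51d, Chek2 and Xrcc6 lie between -1.04 and -1.22 at the negative end.

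Transcript length moved with the response in MAflox cells. From the shortest to the longest of 5 equal length groups, the median log2 fold change of all genes was 0.31, 0.12, 0.02, -0.06 and -0.37 in MAflox cells, while in MATIP cells it was -0.03, -0.03, -0.04, 0.03 and 0.09. Of the 41 repair genes 16 were in the longest group, where their median was -0.74 in MATIP cells and -0.79 in MAflox cells. The 5 largest falls in MAflox cells were those of Brca2, Atr, Atm, Mdc1 and Prkdc, whose longest transcripts are 10724, 8102, 9819, 7335 and 12647 bases. With the trend with length and GC content removed, these 5 genes had log2 fold changes of -0.83, -0.99, -0.74, -0.58 and -0.54 in MAflox cells. The median of the 41 genes was then -0.29 in MAflox cells and -0.69 in MATIP cells. Length and GC content were removed together, so the part of length alone was not separated. Removing the trend also moved other called falls in MAflox cells by over 1.5 times, to -0.25 for Exo1, -0.38 for Brca1, -0.22 for Bard1, -0.41 for Fancd2 and -0.42 for Fancm, while the rise of Rbbp8 there became 0.32. The differences of responses became 0.35 for Atr, 0.10 for Rad50, -0.07 for Nbn, -0.62 for Mre11a, -1.0 for Exo1 and -0.26 for Fancl. Fanca became -0.31 in MATIP cells. In EtOH, the differences between the lines became 0.16 for Mdc1 and 0.17 for Fanca. These values carry no test. What set the trend was not tested.

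**Figure D5:**
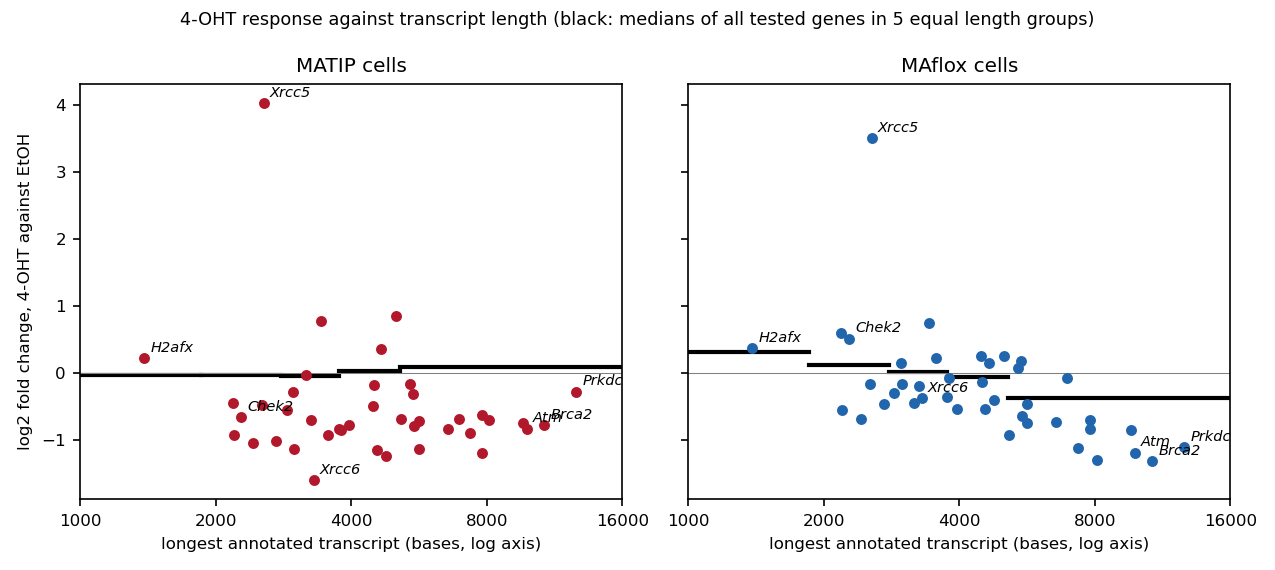
Log2 fold change with 4-OHT against EtOH of the 41 genes by the length of the longest annotated transcript (log axis), in MATIP cells (left) and MAflox cells (right), with black lines for the medians of all tested genes in 5 length groups. The black lines step down from 0.31 to -0.37 along the length axis in MAflox cells and stay between -0.04 and 0.09 in MATIP cells.

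Between the lines in EtOH, where neither had received 4-OHT, most repair genes were close. Of the 41 genes 5 were higher and 3 lower in MATIP cells, against 32% of all tested genes called (20.3% higher, 11.7% lower), with a median of -0.05 against 0.02 over all genes. Xrcc5 was 2.57-fold higher in MATIP EtOH (1.33 and 1.62 CPM) than in MAflox EtOH (0.50 and 0.646 CPM), a log2 fold change of 1.36 ± 0.24 (edgeR adjusted p = 0.000261). H2afx was lower in MATIP EtOH (-0.64 ± 0.07, adjusted p = 9.39e-07), as was Rad54b, another RAD54 translocase, with 11.6 and 12 CPM in MATIP EtOH against 17.3 and 16.4 CPM in MAflox EtOH (-0.51 ± 0.11, adjusted p = 0.00176). Fsbp and Gm11832 share 35.9% of the exon bases of Rad54b, so its counts are uncertain. With 4-OHT, Rad54b had 7.35 and 8.74 CPM in MATIP cells and 13.2 and 14.1 CPM in MAflox cells, falls of 0.55 ± 0.12 and 0.30 ± 0.11 on the log2 scale, of which that in MAflox cells (adjusted p = 0.0262) was lost without MAflox EtOH replicate 1, MAflox 4-OHT replicate 1 or MAflox 4-OHT replicate 2 (0.127, 0.142 and 0.0587) and in DESeq2 (0.056).

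The other called genes of that comparison were small differences. Chek2 (0.25 ± 0.07), Mdc1 (0.25 ± 0.06), Brca2 (0.32 ± 0.10) and Fanca (0.28 ± 0.08) were higher in MATIP EtOH and Mre11a (-0.17 ± 0.06) was lower. Each of these 5 calls was lost without 1 of the EtOH libraries, with edgeR adjusted p-values of 0.126 for Chek2, 0.0583 for Mdc1, 0.35 for Brca2 and 0.18 for Mre11a without MAflox EtOH replicate 1, and 0.0769 for Fanca without MAflox EtOH replicate 2. Without MATIP EtOH replicate 2, adjusted p-values were 0.0675 for Brca2, 0.055 for Fanca and 0.283 for Mre11a. They were 0.142 for Mre11a without MAflox EtOH replicate 2 and 0.0502 for Brca2 without MATIP 4-OHT replicate 2.

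Per kilobase of transcript, H2afx had the highest mean level of the 41 genes in every group, at 65.5 CPM per kilobase in MATIP 4-OHT, 56.2 in MATIP EtOH, 113 in MAflox 4-OHT and 87.4 in MAflox EtOH. The lowest was Rnf8 in MATIP 4-OHT (0.528) and in MAflox 4-OHT (0.691), and Xrcc5 in MATIP EtOH (0.577) and in MAflox EtOH (0.224). In MATIP EtOH, Rnf8 (0.593 ± 0.124 SD) and Xrcc5 (0.577 ± 0.0824 SD) did not differ beyond their spread (n = 2). Xrcc6 ranked next to H2afx in MATIP EtOH, MAflox 4-OHT and MAflox EtOH, and Xrcc5 stood just above it in MATIP 4-OHT, at 9.47 ± 0.204 CPM per kilobase against 9.14 ± 0.618 CPM per kilobase for Xrcc6 (SD, n = 2).

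Other genes of the same pathways, 94 genes in 5 lists of which 90 were tested, were mostly lower in MATIP cells as well. In MATIP cells 64 fell (71.1%) and 12 rose (13.3%), with a median of -0.56. In MAflox cells 41 fell (45.6%) and 16 rose (17.8%), with a median of -0.15. Over all tested genes 38.6% were lower and 37.5% higher in MATIP cells, and 32.1% lower and 33.1% higher in MAflox cells. Of 18 other checkpoint genes 16 fell and 0 rose in MATIP cells, and 11 fell and 0 rose in MAflox cells. Tipin, of the fork protection complex, fell by 2.01 ± 0.07 in MATIP cells, its partner Timeless fell by 1.01 ± 0.07 in MAflox cells, and Trp53, the gene of p53, fell by 1.74 ± 0.07 in MATIP cells and 1.08 ± 0.06 in MAflox cells on the log2 scale. Of 26 other homologous recombination genes 18 fell (69.2%) and 2 rose (7.69%) in MATIP cells, and 11 fell (42.3%) and 6 rose (23.1%) in MAflox cells. The nuclease gene Dna2 (-1.56 ± 0.06) and the RPA subunit gene Rpa2 (-1.33 ± 0.06) led the falls in MATIP cells, where Shfm1 (0.47 ± 0.07), whose product binds BRCA2, and the helicase gene Recql5 (0.29 ± 0.08) were the 2 that rose. In MAflox cells Tonsl (-1.21 ± 0.10) and Recql4 (-1.15 ± 0.10) fell, and Shfm1 (0.87 ± 0.07) and Rpa3 (0.45 ± 0.07) rose.

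Of 16 other Fanconi and crosslink genes 11 fell (68.8%) and 3 rose (18.8%) in MATIP cells, against 38.6% and 37.5% of all tested genes. In MAflox cells 6 fell (37.5%) and 4 rose (25%), against 32.1% and 33.1% of all tested genes. Usp1, which removes ubiquitin from FANCD2, fell by 1.28 ± 0.06 and Faap24 by 1.47 ± 0.07 in MATIP cells, where Cetn2 (0.30 ± 0.07) and the nuclease gene Ercc1 (0.49 ± 0.13) rose. In MAflox cells Faap100 (-1.33 ± 0.12) and Rfwd3 (-0.52 ± 0.06) fell, and Ube2t (0.80 ± 0.09), the enzyme that ubiquitinates FANCD2, and Stra13 (0.47 ± 0.07) rose. Of 15 tested genes of break chromatin and end protection 11 fell (73.3%) and 2 rose (13.3%) in MATIP cells. In MAflox cells 5 fell (33.3%) and 1 rose (6.67%), so the share that fell there was near that of all tested genes. Rif1, which protects ends together with the protein of Trp53bp1, fell by 1.40 ± 0.07 and Fam175a, of the BRCA1-A complex, by 1.54 ± 0.11 in MATIP cells, and Rnf169 rose there (0.29 ± 0.09). Herc2, a ubiquitin ligase that works with RNF8, rose in MATIP cells (0.74 ± 0.08) and fell in MAflox cells (-1.42 ± 0.08). In MAflox cells the cohesin gene Smc1a fell by 0.95 ± 0.06 and Uimc1, of the BRCA1-A complex, rose (0.41 ± 0.09).

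Of 15 other tested end joining genes 8 fell (53.3%) and 5 rose (33.3%) in each line. Over all tested genes 38.6% were lower and 37.5% higher in MATIP cells, and 32.1% lower and 33.1% higher in MAflox cells. The share that rose was thus near that of all tested genes in both lines. Parp3 rose by 0.85 ± 0.09 in MATIP cells and 0.65 ± 0.09 in MAflox cells on the log2 scale. Parp1, the main sensor of strand breaks among the poly-ADP-ribose polymerases, fell by 1.27 ± 0.06 in MATIP cells and 1.40 ± 0.06 in MAflox cells. The ligase gene Lig3 fell in MATIP cells (-1.45 ± 0.06), and Polq, the polymerase of the alternative end joining route, fell in MAflox cells (-1.03 ± 0.09).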

How the data were processed

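RNA was sequenced from 8 libraries in 4 groups of 2. The values deposited are raw whole-number counts of reads for each gene symbol. Per the submitters' processing notes, featureCounts 1.6.4, HISAT2 2.1.0, Trimmomatic 0.38.0 and DESeq2 served, on build mm10. The sources used here do not give the strand setting, the gene annotation or the treatment of reads that map to several places. Of the columns of per-library values, 0 belong to no sample, and 23 further columns are empty. A deposited table of comparisons lists the authors' log2 fold changes and the authors' adjusted p-values, by its headers, for 4-OHT against EtOH in each line.

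With filterByExpr by group (a minimum count of 10 and a minimum total of 15) 13722 genes were kept and tested with edgeR's quasi-likelihood test (edgeR 4.0.16 in R 4.3.3) after TMM scaling, 1 coefficient per group over all 8 libraries and no covariate (4 residual degrees of freedom, prior 14.3, biological coefficient of variation 5.98%). P-values were adjusted by Benjamini-Hochberg over all tested genes within a comparison, and genes are called at 0.05. Values after ± are standard errors, computed as the size of the log2 fold change over the square root of F, unless SD is written. CPM values use the scaled library sizes, and the number of counts in a library limits the precision of low genes. No replicate was a copy of another, since the chi-square between replicates was 7.09 to 13.1 times its degrees of freedom.

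Gene positions, lengths and exon overlaps came from GENCODE M21 (build mm10), where 23334 of 24421 symbols were found once. Transcript length and GC content were known for 96.2% of tested genes, and their trend was removed with loess (span 0.5). Alternatives were DESeq2 1.42.0, its size factors in edgeR, library totals alone, no count filter, a mean CPM of at least 1, the 4 libraries compared alone, the replicate number as a block, the length and GC trend removed, and leaving out each library. The 41 genes and all other lists were chosen with earlier results of these data known. Values in every library are given for Kat5, Atm, H2afx and Trp53bp1, for the 5 called genes with the largest rise and the 5 with the largest fall in each 4-OHT comparison and in the difference of responses, and for 3 each way in EtOH. Of each other list, the 2 called genes with the smallest p in each direction are named, apart from results that are not reported here. Protein sequences of these genes were not analysed here.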

Additional observations from a re-analysis of the deposited data

Results flagged for a closer look

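The 4-OHT response differed between the lines in a direct test for 27 of the 41 genes (65.9%, against 61.9% of all tested genes), given here as the log2 response in MATIP cells minus that in MAflox cells, with its standard error and its edgeR adjusted p. Among the checkpoint kinases these were Atm (0.36 ± 0.11, 0.0117), Atr (0.60 ± 0.11, 0.000122), Chek1 (-0.77 ± 0.12, 1.15e-05) and Chek2 (-1.17 ± 0.10, 1.29e-08). Among the genes that process break ends these were Mre11a (-0.39 ± 0.09, 0.00112), Rad50 (0.24 ± 0.09, 0.0294), Nbn (-0.31 ± 0.12, 0.025), Rbbp8 (-0.50 ± 0.09, 5.41e-05), Exo1 (-0.49 ± 0.09, 0.000141) and Blm (-0.84 ± 0.09, 1.18e-07). Among the genes of the chromatin mark these were Mdc1 (0.22 ± 0.09, 0.0336) and Rnf168 (-0.76 ± 0.09, 8.07e-07). In the BRCA group these were Brca2 (0.53 ± 0.15, 0.00544), Palb2 (-0.49 ± 0.15, 0.00975) and Brip1 (-0.61 ± 0.12, 0.000178). Among the recombination mediators and RAD54 genes these were Rad51b (-1.04 ± 0.23, 0.00063), Rad51d (-1.15 ± 0.11, 2.15e-08), Xrcc2 (-0.50 ± 0.12, 0.00103) and Rad54l (-0.60 ± 0.11, 0.000107). Fanconi anaemia genes on the list were Fancb (-0.97 ± 0.16, 3.5e-05), Fancc (0.42 ± 0.17, 0.0386), Fance (-0.37 ± 0.13, 0.0192), Fancg (-0.42 ± 0.12, 0.00417) and Fancl (-0.55 ± 0.17, 0.00839). Among the end joining genes these were Xrcc6 (-1.22 ± 0.09, 1.24e-09), Lig4 (0.59 ± 0.20, 0.0157) and Prkdc (0.83 ± 0.13, 1.24e-05). With 4-OHT, Chek2, Rbbp8, Rnf168, Rad51b and Rad51d were called lower in MATIP cells and higher in MAflox cells. With library totals alone, the rises of Rbbp8, Rnf168 and Rad51d in MAflox cells were 0.01, 0.08 and 0.06 and were not called. The fall of Rad51b in MATIP cells was not called in DESeq2 (adjusted p = 0.101). Calls lost without 1 library that are not given above were those of Rad50 (without MAflox EtOH replicate 1 or 2, MAflox 4-OHT replicate 1 or MATIP EtOH replicate 2, adjusted p = 0.0501, 0.126, 0.0813 and 0.087) and Nbn (without MAflox EtOH replicate 2, MAflox 4-OHT replicate 2, MATIP EtOH replicate 1, or MATIP 4-OHT replicate 1 or 2, adjusted p = 0.084, 0.205, 0.0547, 0.105 and 0.0561). Further such calls were those of Fance (without MAflox EtOH replicate 1, MAflox 4-OHT replicate 1 or MATIP 4-OHT replicate 1, adjusted p = 0.0568, 0.053 and 0.0923), Palb2 (without MATIP 4-OHT replicate 2, 0.101) and Fancl (without MATIP 4-OHT replicate 2, 0.0509). In DESeq2 the differences of Nbn, Palb2 and Fance were lost (adjusted p = 0.117, 0.0509 and 0.109). With the length and GC trend removed, differences that moved by over 1.5 times or turned were 0.35 for Atr, -0.10 for Atm, 0.10 for Rad50, -0.07 for Nbn, -0.62 for Mre11a, -1.0 for Exo1, -0.47 for Mdc1, 0.03 for Brca2, -0.26 for Fancl and 0.18 for Prkdc. With 2 libraries a group no single library could be tested as standing apart.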

How the results depend on the processing

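The falls in MATIP cells kept their direction and call for 31 to 34 genes without any 1 library (3 to 5 rises, median -0.72 to -0.65), against 22 to 24 falls and 7 to 8 rises in MAflox cells (median -0.40 to -0.34). The difference of responses had 16 to 20 genes lower and 4 to 7 higher (median -0.35 to -0.21), and the comparison in EtOH 2 to 5 higher and 2 to 4 lower. Library totals alone shifted the median of all genes by -0.13 in MATIP and -0.16 in MAflox cells, with 3 rises and a median of -0.84 in MATIP cells and 5 rises, 29 falls and a median of -0.55 in MAflox cells. Relative to all genes the medians were then -0.71 and -0.41, as against -0.71 and -0.40 with TMM scaling. The split of all calls was then 4562 higher and 5996 lower in MATIP cells and 3540 higher and 5587 lower in MAflox cells, and that of the repair genes in EtOH 4 higher and 4 lower. The median in MATIP cells was -0.63 with DESeq2 or its size factors and -0.62 with a mean CPM of at least 1. With the length and GC trend removed, the median was -0.29 in MAflox cells and -0.42 for the difference (-0.29 and -0.43 with the replicate block too), and the differences of Atm and Mdc1 turned to -0.10 and -0.47 (-0.09 and -0.47 with the block). Values that were not called also turned with that trend removed, the differences of Trp53bp1 to -0.62 and Fancm to -0.23, Brip1 and Fanca in MAflox cells to 0.18 and 0.14, and Blm, Rad54l and Prkdc in EtOH to -0.01, -0.04 and -0.04.

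Libraries of the same number in a line showed no shared deviation (correlation -0.0391 in MATIP and -0.0023 in MAflox cells, over 13722 genes). A correlation near 0 cannot tell whether such libraries shared a culture or a day. With the replicate block, 8 repair genes and 2726 of all genes were lower in MATIP EtOH than in MAflox EtOH, and 4 calls were lost, those of Fanca in MATIP cells (adjusted p = 0.06), Xrcc2 in MAflox cells (0.059) and the differences of Fancc (0.0576) and Mdc1 (0.0541). Changes near 0 that were not called turned sign. Fancc in MATIP cells was 0.04 with DESeq2 or its size factors, 0.06 with a mean CPM of at least 1, and -0.08 to 0.07 without 1 library. The difference of Fanca was 0.03 in these 3 fits, 0.00 with library totals, and -0.09 to 0.02 without 1 library. With library totals Rnf8, Fancg and Fanci in MAflox cells were -0.09, -0.03 and -0.03. Without 1 library, sign also turned for Xrcc4 (-0.08 to 0.17), Rnf8 (-0.58 to 0.02), Fancm (-0.01 to 0.36), Trp53bp1 (-0.04 to 0.27), Brca1 (-0.20 to 0.03) in the difference of responses, and for Brip1 (-0.17 to 0.04), Fancb (-0.34 to 0.02), Chek1 (-0.16 to 0.00), Rnf8 (-0.19 to 0.41) in MAflox cells, and for Rnf8 (-0.38 to 0.06) in MATIP cells. The causes were not tested. Analyses of protein sequence were not run. Depth limits the precision of low genes, and strand could not be used to separate overlapping genes.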

Other observations

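The authors' deposited table gave 5 of the 41 genes higher and 30 lower with 4-OHT in MATIP cells at its adjusted p of 0.05, and 8 higher and 22 lower in MAflox cells. The share of all genes called in the authors' table was not counted, so these numbers have no background beside them. The sign in the authors' deposited table was that of the edgeR fit for 40 of the 41 genes in MATIP cells and for 41 of 41 in MAflox cells.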
